A study of Bubalus bubalis with 12 samples.

Results

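Dimethylation of histone H3 at lysine 4 (H3K4me2) was measured in frozen sperm of 3 high-fertile (HF) and 3 subfertile (SF) water buffalo bulls. The 6 arrays were those with H3K4 in their titles, out of 12 arrays in the series. The other 6 carried H3K27me3, the trimethylated lysine 27 mark, from the same bulls. The HF bulls were HF2, HF3 and HF5 and the SF bulls were SF1, SF4 and SF5, each with 1 array, and the labels give no age, breed or other trait of the animals. All 6 samples were untreated cryopreserved semen, and the labels do not say how fertility was scored or whether cells other than sperm were removed. Chromatin was cut with micrococcal nuclease, precipitated with an antibody to H3K4me2, amplified with linkers and labelled in Cy5, next to Cy3-labelled input DNA from the same bull. The question was whether H3K4me2 differs between sperm of HF and SF bulls.

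H3K4me2 is placed by the KMT2 and SETD1 enzyme complexes and removed by KDM1 and KDM5 demethylases. It sits at promoters and CpG islands of genes that are active or held ready for activity. Most histones are replaced by protamines when sperm mature, and the nucleosomes that remain are known to lie often at CpG-rich promoters of developmental and housekeeping genes, where H3K4me2 can be kept. An array of this kind reads that mark as the ChIP signal over the input signal at each short probe.

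Probes were 60 bases long and designed on the cattle genome build HGSC Btau_3.1. Of 177440 that are not controls, 177372 were used. The array's own annotation puts 160659 of these in a CpG island, 13403 in a promoter and 3310 in coding sequence, so nearly all results concern CpG islands. A level below means log2 of ChIP over input with the array's median probe at 0, and it gives no absolute amount of the mark. A gene's level is the mean of its probes, for the 6805 symbols with at least 2 probes. The scanned ChIP signal had a median of 1160 and 1360 in SF1 and SF4, 933 and 1010 in HF2 and HF3, and only 589 in HF5 and 356 in SF5, so 1 bull of each group was dim. Between 93.9% and 100% of the probes stood above background in the ChIP colour, and the number of arrays limits the precision. Levels were higher at GC-rich probes on the dim arrays: probes at 53.3% GC or more exceeded those at 43.3% or less by 1.2 in HF5 and 1.31 in SF5, against -0.36 to 0.18 on the other 4 arrays. Slide 4 held HF5 and SF1, and each other slide 1 bull. The arrays also differed in spread. The SD of gene levels was 0.5 in HF2, 0.59 in SF4, 0.63 in SF1, 0.91 in HF3, 0.95 in HF5 and 1.08 in SF5. Levels above 1 were read for 183 genes in HF2 and 1224 in SF5. How far a bull lies from 0 at 1 gene therefore has to be read beside the spread of its whole array.

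The probes behind 4 of the genes are printed here because they show what was read, how closely probes overlap and how far readings of neighbouring probes can differ. They were chosen after their values were seen. Each is a 60-base cattle sequence from the array design, in lower case, with every CG dinucleotide in capitals, as CpG sites are what the islands were picked for. The pair for ZNF192 lies at chr23:30612110-30612169 and chr23:30612144-30612203, starts 34 bases apart and shares 26 bases. The KAT7 probes are those of its CpG island with the largest difference, chr19:38038679-38038738, and the smallest, chr19:38038898-38038957, 219 bases on. The PATZ1 probes at chr17:73597735-73597794 and chr17:73597747-73597806 start 12 bases apart and share 48 bases. The OXSR1 sequence at chr22:11754039-11754098 was spotted under 2 names, as a promoter probe and as a CpG island probe.
ZNF192 first probe: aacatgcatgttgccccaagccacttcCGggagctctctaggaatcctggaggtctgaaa
ZNF192 second probe: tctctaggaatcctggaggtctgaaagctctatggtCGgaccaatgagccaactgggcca
KAT7 largest difference: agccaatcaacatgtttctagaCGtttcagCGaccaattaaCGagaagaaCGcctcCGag
KAT7 smallest difference: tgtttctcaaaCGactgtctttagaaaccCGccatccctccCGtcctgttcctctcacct
PATZ1 first probe: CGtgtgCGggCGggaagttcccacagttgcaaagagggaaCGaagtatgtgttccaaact
PATZ1 second probe: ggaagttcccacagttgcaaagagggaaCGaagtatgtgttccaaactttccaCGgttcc
OXSR1 probe: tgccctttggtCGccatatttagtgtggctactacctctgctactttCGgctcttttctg

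Values of these probes varied sharply over short distances and hardly at all between copies. The first PATZ1 probe read 0.03, 0.05 and 0.36 in HF2, HF3 and HF5 and 0.04, 0.13 and 0.58 in SF1, SF4 and SF5. The second, 12 bases on, read -0.7, 0.01 and -3.24 in the HF bulls and 2.31, 1.47 and 1.9 in the SF bulls. So HF minus SF went from -0.1 to -3.2 between probes that share 48 of 60 bases, with all 3 SF bulls above all 3 HF bulls at the second. The 2 copies of the OXSR1 probe gave 0.2 and 0.31 in HF2, 2.82 and 2.97 in HF3, 3.1 and 2.92 in HF5, -0.66 and -0.69 in SF1, -1.76 and -1.64 in SF4, and -1.66 and -1.71 in SF5. Each copy thus placed the 3 HF bulls above the 3 SF bulls, by 3.4 and 3.41. The second ZNF192 probe differed more between the groups, 3.77, than the first, 2.01, and both had no overlap of the groups.

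Over all genes, no difference between HF and SF passed the test. With limma and a Benjamini-Hochberg adjusted p under 0.05, 0 of 6805 genes were called, 0% of those tested, and the lowest adjusted p was 1. At an unadjusted p under 0.05 there were 198 genes, 2.91%, of which 115 (1.69%) read higher and 83 (1.22%) lower in HF. The groups did not overlap for 448 genes, 6.58% of those tested, 237 with HF higher (3.48%) and 211 with HF lower (3.1%). The median difference over all genes was -0.02, with 3282 genes higher and 3523 lower in HF. The 95% interval of a gene's difference reached 1.2 to each side in the median gene. Data were also simulated with each gene's spread within the groups, as independent normal noise of equal size on every array. There the same test recovered 0% of genes changed by 2 on the log2 scale and 81% of genes changed by 4. The real arrays differ in spread and in GC trend, so these shares need not hold for them. With 3 bulls in each group an exact permutation test of a single value cannot go below a two-sided p of 0.1. The labels do not say whether a bull was sampled more than once, so p-values measure the spread between bulls as sampled here. With 1 array per bull, that spread also holds the preparation, amplification and array of each bull.

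The genes named next had the smallest unadjusted p in each direction among those whose groups did not overlap: 12 per direction with at least 5 probes and 3 per direction with 2 to 4 probes. Among the 4358 genes with at least 5 probes, groups did not overlap for 298 (6.84%), 166 with HF higher (3.81%) and 132 with HF lower (3.03%). The named genes are therefore the extremes of a ranking in which nothing was called, the lack of overlap is part of their choice, and their values describe what the data hold at its edges. Every adjusted p among them was 1 in limma, their unadjusted p ran from 0.00063 to 0.0262 and the SE of their differences from 0.39 to 0.77. The probes of one gene mostly overlap each other, so the number of probes is not a number of independent readings. Over the whole array, groups did not overlap at 7.17% of probes. Counts of such probes within a named gene follow in part from its choice and are no repeated support. Whether a probe also binds near-identical sequence elsewhere was not tested.

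Among genes of chromatin and transcription, KAT7 and PATZ1 were, with SERP1 and CWC25, the 4 genes of smallest unadjusted p lower in HF among the named genes with at least 5 probes. KAT7 encodes the histone acetyltransferase HBO1, which acetylates histones H3 and H4 at promoters and replication origins. Its 28 probes gave levels of -0.46, -0.82 and -0.41 in HF2, HF3 and HF5 and 0.85, 1.33 and 1.97 in SF1, SF4 and SF5. All 3 HF bulls lay below the array median and all 3 SF bulls above it. The difference was -1.94 (SE 0.45, unadjusted p = 0.00221, limma). Of these probes 27 lay in 1 island at chr19:38038440-38038961, where HF minus SF was -2.05. At 14 of the 28 probes the groups did not overlap, against 7.17% of all probes. The remaining KAT7 probe, in a promoter at chr19:38043136-38043195, gave 0.86, the other direction. Within the island the difference ran from -3.95 to -0.56, as the printed probes show.

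PATZ1 encodes a zinc finger transcription factor with a POZ domain and an AT hook. Its 34 probes averaged -0.54, -0.04 and -0.74 in HF2, HF3 and HF5 and 0.89, 0.89 and 0.82 in SF1, SF4 and SF5, a difference of -1.3 (SE 0.41, unadjusted p = 0.012, limma). In this mean the SF bulls lay close together and apart from the HF bulls, but they did not in its single stretches. The difference came from one stretch of the gene. In the 17 probes of chr17:73597735-73597943 it was -2.4, from levels of -0.77, 0.18 and -1.34 in the HF bulls and 1.55, 1.06 and 2.67 in the SF bulls. In the 15 probes of the other main stretch, at chr17:73579512-73580302, it was -0.26 with overlapping groups. There SF1, SF4 and SF5 read 0.25, 0.88 and -1.12. SF5 was thus the highest SF bull in the first stretch and the lowest in the other.

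Other regulators of transcription read in both directions. ZNF192, a zinc finger gene with 2 probes, had the smallest p of all genes tested: 0.67, 1.96 and 0.91 in HF2, HF3 and HF5 against -1.17, -2.57 and -1.4 in SF1, SF4 and SF5. The difference was 2.89 (SE 0.55, unadjusted p = 0.00063, limma). ZNF35, also with 2 probes, read 0.67, 2.37 and 3.5 in the HF bulls and -0.63, -0.24 and -2 in the SF bulls, 3.14 apart. ZBTB9 (5 probes) differed by 1.49, and ZNF438 (25 probes) by -1.31. RNF111, the ubiquitin ligase Arkadia of TGF-beta signalling, differed by -1.16, with -0.2, -0.32 and -0.23 in the HF bulls and 0.69, 0.99 and 1.06 in the SF bulls. These RNF111 means join unlike probes. The 12 probes of its main stretch differed by -1.03 and a lone promoter probe by -2.78. HF3 ran from -2.08 to 2.4 over single RNF111 probes, and groups did not overlap at 4 of 13. CWC25, a factor of the spliceosome, differed by -1.75.

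Several of the highest-ranked genes act in protein folding, secretion and transport. TXNDC5, a disulfide isomerase of the endoplasmic reticulum, had 6 probes with levels of 1.03, 1.43 and 2.85 in HF2, HF3 and HF5 and -0.66, -0.22 and -1.59 in SF1, SF4 and SF5. Its difference of 2.59 (SE 0.6, unadjusted p = 0.00224, limma) was the largest among genes with at least 5 probes in this set. LMAN2L, a lectin that carries glycoproteins from the endoplasmic reticulum, read 0.07, 0.95 and 1.41 against -0.82, -0.79 and -0.91, 1.65 higher in HF. SERP1, which protects new proteins at the translocon, went the other way at -2.25, from -1.18, -2.45 and -0.07 in the HF bulls and 1.54, 0.61 and 0.91 in the SF bulls. KPNB1, the importin beta that carries cargo into the nucleus, differed by 1.71. PFDN6, a subunit of the prefoldin chaperone, differed by 1.57 over 35 probes, but its lone probe outside the main stretch read -1.9. PIGL, an enzyme of GPI anchor synthesis, differed by 2.42, and HF5 at -1.17 was close to the SF bulls, whose highest value was -1.53. ASPH, an aspartate hydroxylase of the endoplasmic reticulum, differed by -1.33.

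OXSR1 was the gene with the most probes among the lead genes. It encodes a kinase that answers osmotic and oxidative stress by acting on chloride cotransporters. Its 53 probes at chr22:11753244-11754219 averaged 0.06, 1.22 and 1.08 in HF2, HF3 and HF5 and -0.79, -0.88 and -0.81 in SF1, SF4 and SF5. The SF bulls agreed within a narrow range and HF2 lay between them and the other HF bulls. HF2 was also the array with the smallest spread of gene levels, an SD of 0.5. The difference was 1.62 (SE 0.46, unadjusted p = 0.00697, limma). At 33 of the 53 probes the groups did not overlap, with HF higher, against 7.17% of all probes without overlap in either direction.

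The other genes with at least 5 probes serve varied roles. ASB8, an adaptor of ubiquitin ligases, read 0.41, 1.98 and 1.05 in the HF bulls and -0.85, -0.88 and -1.45 in the SF bulls, 2.21 higher, at all 6 of its probes. CDH3, the P-cadherin of epithelia, read -0.3, 1.96 and -0.02 against -1.29, -1.96 and -1.3, 2.07 higher. All 13 CDH3 probes had groups without overlap, yet HF2 and HF5 lay near 0, and without HF3 the difference was 1.36. AMMECR1L differed by 1.79, FAM216A by 2.01 and C22H3orf62 by 1.69. On the lower side NDRG4 differed by -2.26, with levels of -0.26, -0.94 and -0.55 in the HF bulls and 0.56, 1.05 and 3.41 in the SF bulls. Without SF5 the NDRG4 difference was -1.39. ATP6V0A2, a subunit of the proton pump that acidifies vesicles such as the acrosome, differed by -1.69. FXYD6, a regulator of the sodium pump, differed by -1.54. UROS, an enzyme of haem synthesis, differed by -1.38, and NLE1, a factor of ribosome assembly, by -1.34.

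Genes with few probes reached larger differences. DEFB123, a beta-defensin of the kind secreted in the epididymis, had 3 probes with 0.48, 1.39 and 0.76 in the HF bulls and -1.63, -0.46 and -1.19 in the SF bulls, 1.97 higher. TMEM177, a mitochondrial protein of cytochrome oxidase assembly, read -0.73, -0.93 and -1.94 against 0.58, 0.97 and 3.1, a difference of -2.75. FSCN2, an actin-bundling fascin, differed by -2.06 and C1QTNF6 by -2.14. Each mean joins 2 unlike probes, -3.73 and -0.4 in FSCN2 and -3.41 and -0.88 in C1QTNF6. At the probe of smaller difference the groups overlapped in both genes. On slide 4, where HF5 and SF1 were hybridised together, HF5 minus SF1 was 0.6 to 4.13 over the 15 genes with HF higher and -2.52 to -0.27 over the 15 with HF lower. The sign of these within-slide values is fixed by the choice of genes without overlap.

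**Figure D1:**
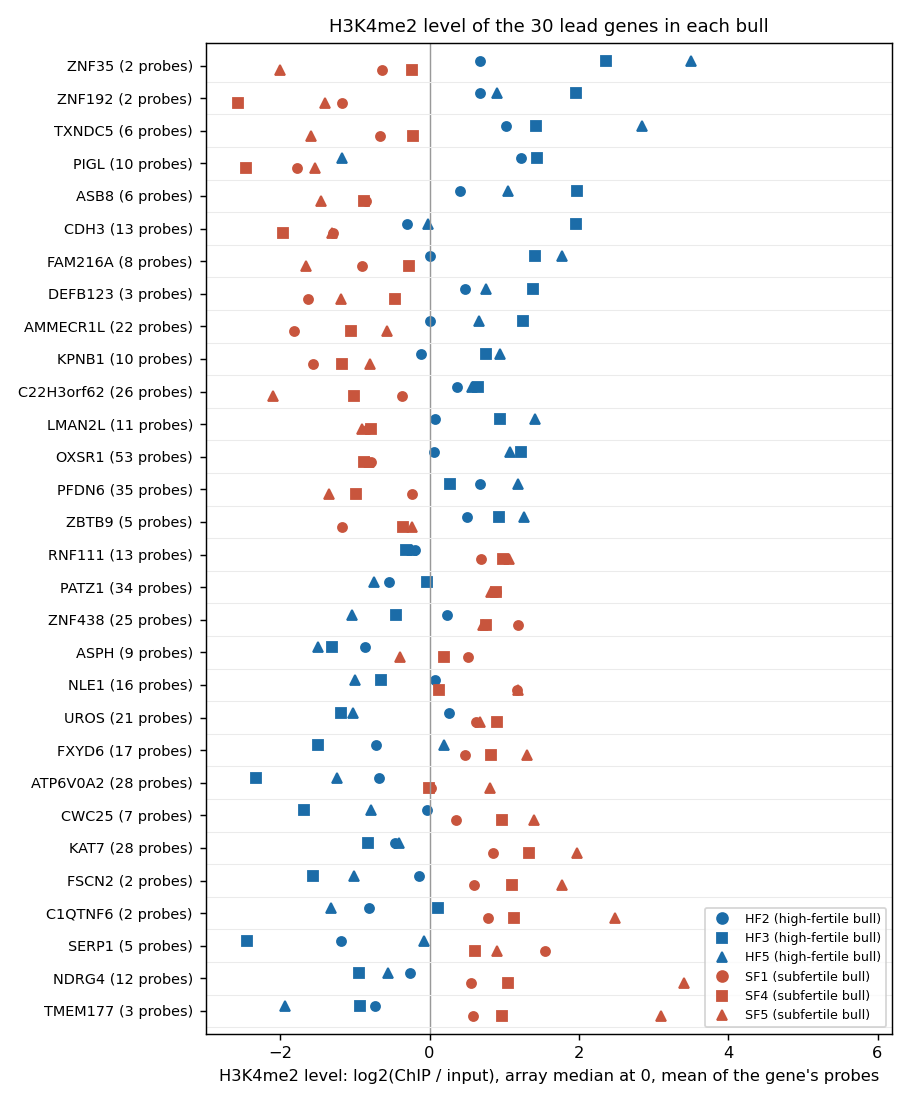
H3K4me2 level of the 30 lead genes (per direction 12 of smallest unadjusted p with at least 5 probes and 3 with 2 to 4 probes), sorted by HF minus SF, with 1 point per bull (blue HF, red SF; circles, squares and triangles are HF2, HF3, HF5 and SF1, SF4, SF5). The x axis is log2 of ChIP over input with the array median at 0. No overlap of the groups was a condition of being shown; ZNF35 (3.14) and TMEM177 (-2.75) mark the ends.

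A ratio of ChIP to input can differ because either signal differs, so both colours were also read alone. Neither gave a call: limma called 0 of 6805 genes in the ChIP colour (0%; 119 genes, 1.75%, at an unadjusted p under 0.05) and 0 in the input colour (0%; 248 genes, 3.64%). The median size of the difference over all genes was 0.33 in the ratio, 0.25 in the ChIP signal and 0.24 in the input. Groups did not overlap for 462 genes in the ChIP colour, 6.79%, and for 533 genes in the input colour, 7.83%. Of the 448 genes separated in the ratio, 102 were also separated in the ChIP colour the same way, 110 in the input colour the opposite way and 15 in both, while for 251 neither colour alone was separated.

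Of the 24 genes with at least 5 probes, the ChIP signal differed in the direction of the ratio in 23 and the input in the opposite direction in 24, and the input part was the larger in 10. The median sizes were 1.69 for the ratio, 0.85 for ChIP and 0.88 for input. Of the 6 lead genes with 2 to 4 probes, the input part was the larger in 1, with median sizes of 2.45 for the ratio, 1.48 for ChIP and 1 for input. Such a pattern of signs is built into the choice of genes by their ratio.

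Single genes differed in this respect. PATZ1 was nearly all ChIP, -1.26 against 0.04 in the input, and PFDN6 was mostly ChIP, 1.35 against -0.23. ASB8 was nearly all input, 0.26 in ChIP against -1.95, and the same held for ASPH, with 0.17 and 1.49. KAT7 (-1.04 and 0.9) and OXSR1 (0.88 and -0.74) drew on both. In OXSR1, AMMECR1L, CDH3, ZNF192, TMEM177 and FSCN2 each colour alone also separated the groups. In PATZ1, SERP1, NDRG4, PFDN6 and ZNF35 only the ChIP colour did, and in ASPH, ATP6V0A2, PIGL and ZBTB9 only the input colour did, among the 30 genes. The input reads the DNA that nuclease-cut chromatin released, before any antibody was added.

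**Figure D2:**
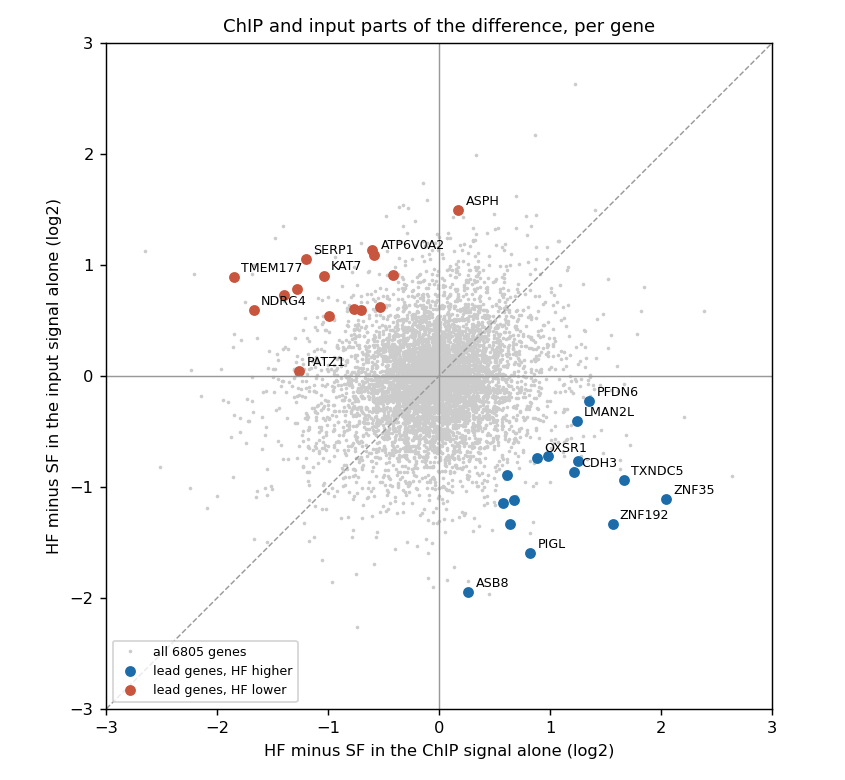
HF minus SF in the ChIP signal alone (x, log2) against that in the input signal alone (y, log2), for all 6805 genes (grey) and the 30 lead genes (blue HF higher, red HF lower). Points on the dashed line have a ratio difference of 0. PATZ1 lies on the horizontal line through 0 (input 0.04), while ASB8 (ChIP 0.26) and ASPH (ChIP 0.17) lie near the vertical one.

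The array tiles islands with probes a few bases apart, so the difference was read at many points of an island. These readings do not give the width of the marked chromatin. How far neighbouring probes respond differently to the same DNA was not tested. In AMMECR1L the probe starting at chr2:4626782 differed by 0.18, and the one 45 bases on, sharing 15 bases, by 3.42. At the latter HF2, HF3 and HF5 read -0.27, 1.83 and 2.21 and SF1, SF4 and SF5 read -3.02, -1.39 and -2.06. The 20 probes of this stretch differed by 1.93 on average, while the AMMECR1L probe at chr2:4627669 differed by 0.06. In UROS the difference was -1.56 and -1.44 in stretches of 4 and 16 probes, and 0.4 at the probe between them. In AMMECR1L the difference was thus largest in 1 short stretch. In UROS it ran over both stretches, and HF was higher at only 1 of its 21 probes.

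**Figure D3:**
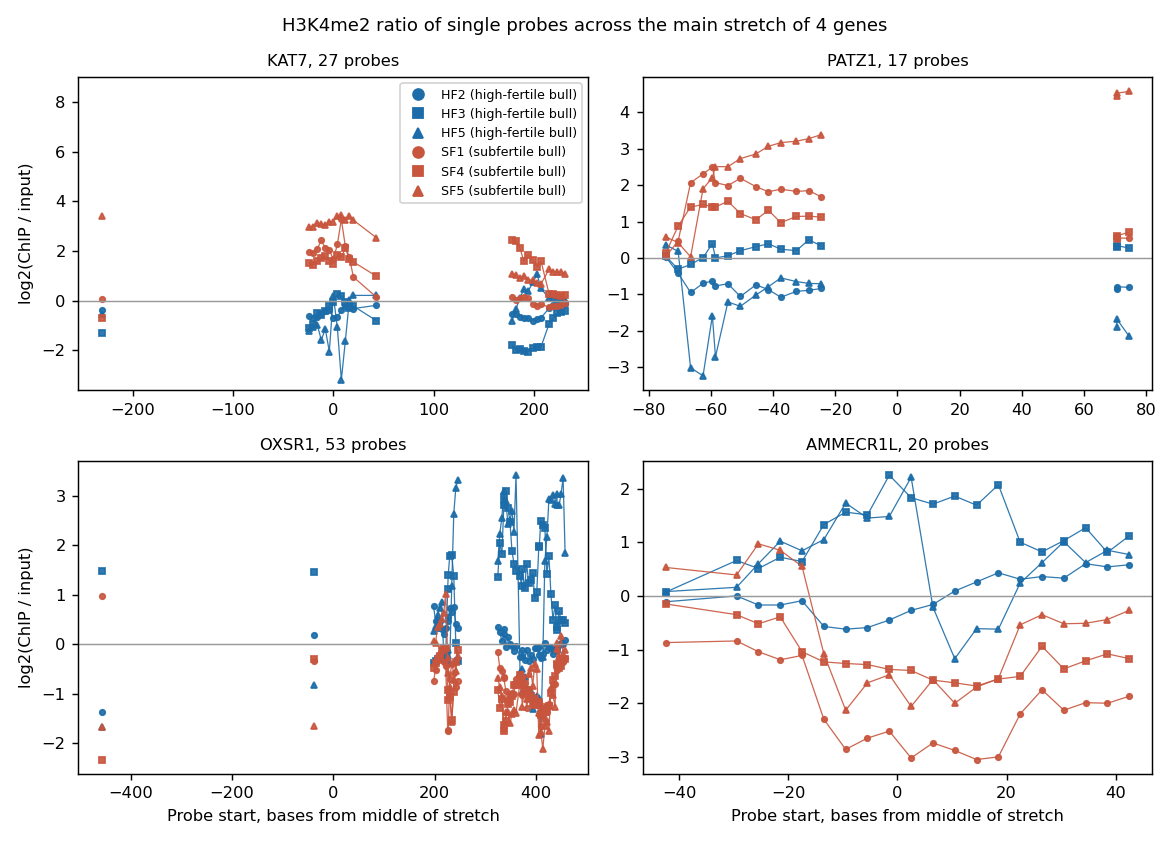
Level of single probes (y, log2 of ChIP over input) against the probe's start in bases from the middle of the stretch (x), for the main stretch of KAT7 (27 probes), PATZ1 (17), OXSR1 (53) and AMMECR1L (20), with 1 line per bull (blue HF, red SF). In KAT7 the bulls part most near the middle, where HF minus SF reached -3.95, and draw together at the right end, at -0.56; lines stop where no probe lies.

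Over the whole array, probes were alike only over a short range. Spots with identical sequence agreed closely: over 1593 pairs the levels correlated at r from 0.981 to 0.988 per array, and the SD between the 2 spots was 0.09 to 0.2. The median SD between bulls at these probes was 0.96. That spread also holds the preparation, amplification and array of each bull, which spots on one array share. Neighbouring probes gave the difference HF minus SF with r = 0.77 at under 50 bases, 0.31 at 100 to 150 bases, 0.11 at 200 to 300 bases and 0.02 at 300 to 400 bases. These correlations describe probes of the same 6 arrays, which overlap in sequence at the shortest distances. The decline was of similar shape on each array, fastest on the dim arrays HF5 and SF5, with r of 0.24 and 0.36 at 50 to 100 bases against 0.48 to 0.6 on the others.

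**Figure D4:**
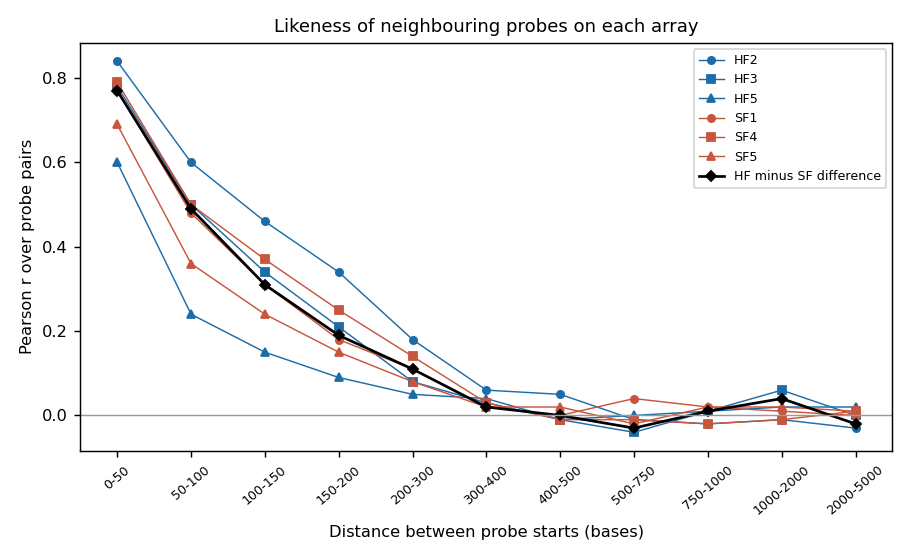
Pearson r over pairs of probes (y) by the distance between their starts in bases (x), for the level on each array (blue HF, red SF) and for the difference HF minus SF (black). All lines fall to near 0 by 300 to 400 bases, where the difference has r = 0.02.

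Regions were built from probes at most 500 bases apart, whatever their gene name, so that islands without a symbol entered too. Among 10443 regions of 4 or more probes there were 0 calls by limma (0%) and 319 regions (3.05%) at an unadjusted p under 0.05. Groups did not overlap in 762 regions, 7.3%, and this share was 7.25% in the 4361 regions without a symbol and 7.33% in those with one. Single probes gave 0 calls of 175796 (0%), with 5295 (3.01%) at an unadjusted p under 0.05 and 12601 (7.17%) without overlap.

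The regions at the top of the ranking were mostly those of genes above or islands without a symbol. The smallest p of all, 0.00116 unadjusted in limma, was in 7 probes at chr10:32494008-32494093, with no symbol. Its levels were -0.14, -0.74 and -0.52 in HF2, HF3 and HF5 and 1.43, 1.99 and 3.1 in SF1, SF4 and SF5. The groups were apart by -2.64, in ChIP (-1.2) and input (1.43) alike. The widest of the 10 named regions, at -3.59, had 8 probes at chr18:53053952-53054039, where SF5 read 4.47 and HF3 -2.59, and most of it, -2.88, was in the ChIP signal. On the higher side 11 probes without a symbol at chr19:23658137-23658244 differed by 2.5, from 0.83, 1.49 and 2.21 in the HF bulls and -1.7, -0.61 and -0.65 in the SF bulls. The 5 probes of LMBR1, at chr4:122565041-122565112, differed by 3.19, with HF5 at 3.92. The other 2 regions without a symbol lay at chr5:104165858-104165939, 2.69 higher, and at chr10:74857127-74857699, 20 probes at -2.09.

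Lists of genes by function were read by their counts beside all genes, where 6.58% had groups without overlap and the median difference was -0.02. In none of the 25 lists was a gene called by limma, and in 11 of them the share without overlap was above that of all genes. Over the 22 lists with at least 10 measured genes the median difference ran from -0.26 to 0.17. Genes named below beyond the 2 of smallest p in each list are named because their groups did not overlap, after their values were seen.

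Of the genes that write H3K4 methylation, 11 of 28 were measured, 4 higher and 7 lower in HF, with a median difference of -0.26. ASH2L, a core subunit of all KMT2 complexes, was the 1 without overlap (9.09%): -0.2, 0.45 and 0.42 in HF2, HF3 and HF5 against 0.96, 1.23 and 1.06 in SF1, SF4 and SF5, a difference of -0.86 over 3 probes (unadjusted p = 0.0696, limma). SMYD1 differed by -1.04 and DPY30, also a core subunit, by -1.08, both with overlapping groups. SETD1A, the catalytic subunit read by 68 probes, differed by -0.58, RBBP5 by -0.63 and PAXIP1, read by 217 probes, by -0.26. In the ChIP signal alone SMYD1 (0.3) and RBBP5 (0.33) read higher in HF, and their ratios were lower through the input (1.33 and 0.95). The ChIP signal was lower in HF for ASH2L (-0.34), DPY30 (-0.72), SETD1A (-0.39) and PAXIP1 (-0.34). MLL5 differed by 1.02. WDR82 (0.33), CXXC1 (0.51), SMYD3 (0.25) and WDR5 (-0.17) were within their spread. The sign turned for DPY30, PAXIP1 and SMYD3 without HF5 and SF5, for CXXC1 without HF5, for SMYD3 without SF5, and for WDR5 without HF2 or SF5 and after loess normalization. Of the demethylases, KDM5A (45 probes) differed by 0.24 and NO66 by 0.06, with overlapping groups, and both turned sign when SF1 was left out, NO66 also under several other settings.

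In the other chromatin lists KAT7 was the only gene without overlap. The histone acetylation list had 19 measured genes, 9 higher and 10 lower, with 1 separated (5.26%) and a median of -0.01. HDAC3, a deacetylase, differed by 0.66 with overlap. Of 13 Polycomb genes, 5 were higher and 8 lower and 0 were separated (0%). RNF2, the ubiquitin ligase of the first Polycomb complex, differed by -0.98 and MTF2 by -0.41. Of 4 measured genes of histone replacement in spermiogenesis none was separated, and TNP1, a transition protein, read -0.64, -0.46 and 0.26 in the HF bulls and 0.13, 0.37 and 0.09 in the SF bulls. DDX25, an RNA helicase of spermatids, differed by -0.38, and turned sign without SF5.

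In the germ cell and meiosis list of 16 genes, 5 were higher and 11 lower. MSH5, a protein of meiotic crossovers, differed by -1.54 with overlap. Of 22 flagellum genes 12 were higher and 10 lower. TEKT3, a tektin of the sperm tail, was the 1 without overlap (4.55%), with -0.02, -0.35 and -1.28 against 0.34, 0.42 and 1.41, a difference of -1.28 at all 4 probes. ROPN1L, a protein of the fibrous sheath, differed by -1.88, most of it in the input (1.52), with HF3 (-0.24) above SF4 (-0.34). Of 15 acrosome and fertilization genes, 9 higher and 6 lower, 0 were separated. PRSS37, a protease-like protein needed for fertilization in mice, differed by -1.09, and DPY19L2, which anchors the acrosome, by 0.92. Of 21 energy genes 7 were higher and 14 lower. PFKP, a glycolytic kinase, was the 1 separated (4.76%), at -1.3, nearly all in ChIP (-1.26), with SF5 at 2.37 and the other SF bulls at 0.04 and 0.36. SLC25A31, the ADP/ATP carrier of testis, differed by 1.44 with overlap.

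The endoplasmic reticulum list had more genes without overlap than the background, 5 of 35 (14.3% against 6.58%), 2 higher and 3 lower, while the list as a whole had 16 higher and 19 lower and a median of -0.01. Beside TXNDC5, LMAN2L and SERP1 these were DNAJB9, a chaperone induced by unfolded protein, at -1.57, and SEC61G, a translocon subunit, at -2.42. So the separated genes of secretion lay on both sides. The lists were chosen with earlier results of these data known, so a share above the background is no test of a list. Nuclear transport had 3 of 23 (13%): KPNB1, NUTF2 at -0.33 and NUP62, a pore protein, at -1.1. Apoptosis had 4 of 20 (20%), again on both sides: DIABLO, which releases caspases from their inhibitors, at -1.76, BCL2L11 at -0.66, BMF, a death-promoting relative of BCL2, at 1.62, and BCL2 itself at 0.18 over 125 probes. Of 23 genes of oxidative stress defence OXSR1 was the 1 separated (4.35%), and PRDX1, a peroxidase, differed by 0.92.

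Developmental lists stayed near the background. Of 79 developmental transcription factors 5 were separated (6.33%), among them DLX4 (-1.11), PITX1 (-0.81) and GBX2 (-0.52, 365 probes), all lower in HF. Of 21 HOX genes HOXA3 was separated (4.76%), at -0.55, while HOXD4 differed by 1.95 and HOXD12 by 0.92 with overlap. In the signalling list 4 of 58 were separated (6.9%): WNT6 at 1.58, LEF1 at 0.57 and WNT3 at 0.58 higher, and WNT2B lower at -0.72. WNT11 differed by 1.63 with overlap. Among 18 genes of the early embryo ELF5 was separated (5.56%) at 1.04, and UHRF1 differed by 1.72. Of 16 imprinted genes KCNQ1 was separated (6.25%), at -0.23. MEG3 differed by -1.13 and H19 by -0.63 with overlap.

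Housekeeping genes gave a similar picture. Cytoplasmic ribosomal proteins were split 28 higher and 28 lower of 56, with RPS19 (1.57) and RPS26 (1.37) separated, 3.57%. RPS26 read 0.47, 1.26 and 2.39 in the HF bulls and 0.12, 0.36 and -0.48 in the SF bulls, nearly all of it in ChIP (1.34). Of 44 splicing genes CWC25, SNRPB (1.32) and SRSF2 (0.54) were separated, 6.82%. Of 19 steroid and gonadotropin genes HSD3B1 (-1.49, nearly all in ChIP) and FST (-0.76) were, 10.5%.

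**Figure D5:**
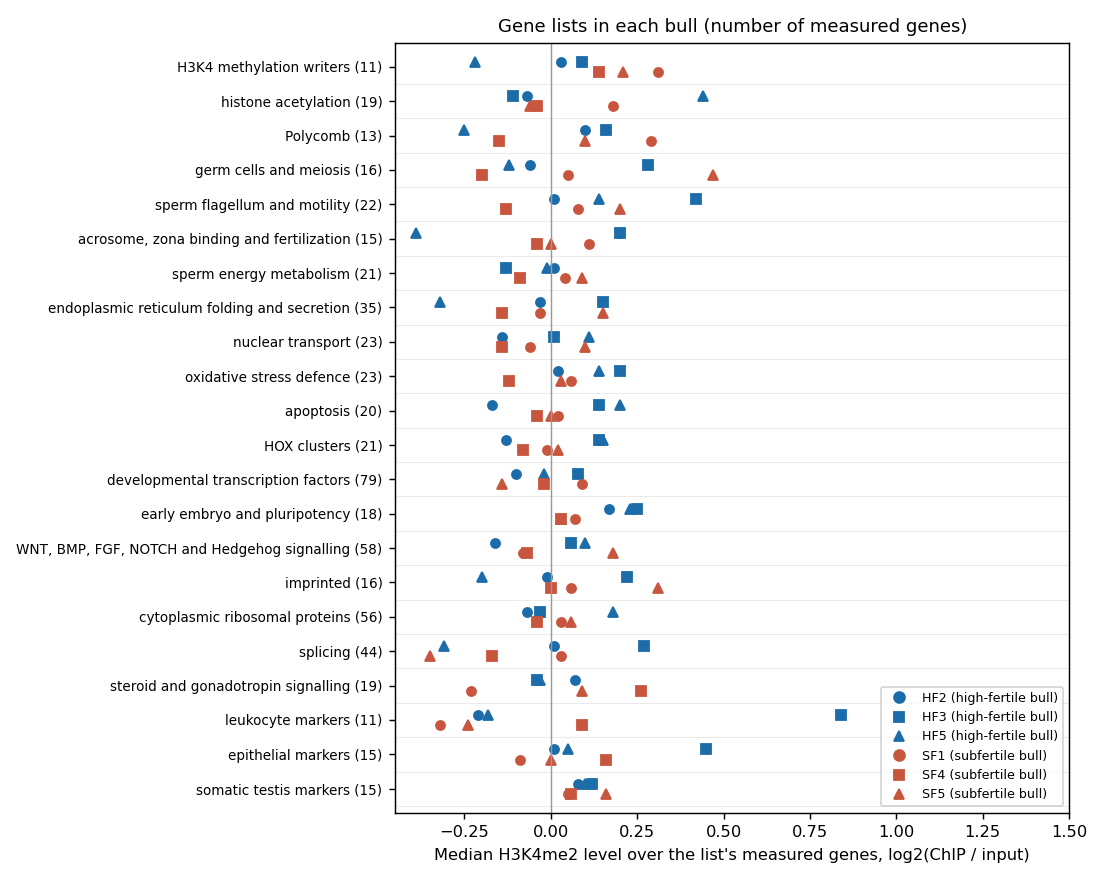
Median H3K4me2 level (x, log2 of ChIP over input) of the measured genes of each list with at least 10 of them, with 1 point per bull (blue HF, red SF). In most lists the medians lie close to 0 and the 2 groups mix; the farthest point is HF3 in the leukocyte list, 0.84.

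Markers of other cells in semen were read the same way, since an array of DNA holds no expression and shows only chromatin at these genes. Of 34 leukocyte markers 11 were measured, 4 higher and 7 lower in HF, and 2 separated (18.2%): LCK, a T cell kinase, at 1.75 and CSF1R, a macrophage receptor, at -1.08. The list's median was 0.84 in HF3 and -0.32 to 0.09 in the other bulls. Of 27 epithelial markers 15 were measured, 10 higher and 5 lower, with CDH3 and CLDN4 (-1.12) separated (13.3%) and medians of -0.09 to 0.45, HF3 again the highest. Of 28 somatic testis markers 15 were measured, with HSD3B1 separated (6.67%), MYH11 at -0.75 and medians of 0.05 to 0.16. Of the defining markers, 7 of leukocytes, 8 of epithelia and 4 of somatic testis were measured, and none was above 0, or below 0, on all 6 arrays. Of 7 defining sperm genes only ODF1 and TNP1 had enough probes, and neither held 1 sign in all bulls. The part of other cells in the differences was not tested.

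Levels were also compared with 0, the array median, over all 6 bulls. No gene was called by limma (0%), and 302 (4.44%) had an unadjusted p under 0.05. Levels were above 0 on all 6 arrays for 137 genes (2.01%) and below 0 for 107 (1.57%). The genes next named had the highest and lowest means among these with at least 5 probes, so that their sign is part of the choice. GEMIN7, of the complex that assembles spliceosomal RNPs, was highest with 2.14, 1.36 and 0.68 in HF2, HF3 and HF5 and 0.63, 1.06 and 2.62 in SF1, SF4 and SF5, a mean of 1.42. DDX47, an RNA helicase of ribosome synthesis, had a mean of 0.99 but read 2.17 and 2.98 in HF5 and SF5 and at most 0.3 elsewhere. DLL3, a Notch ligand, was more even, from 0.36 to 1.52. POMT2, KCNK9, PDCD10, CCDC135 and PRADC1 had means of 0.8 to 0.97. The lowest were TTC7A (-1.33), C3H1orf123 (-1.28), the kinesin KIF5A (-1.28), the syntaxin STX6 (-1.23) and MTRF1, a mitochondrial release factor (-1.22). NFE2, LRTOMT and ADCYAP1R1 had means of -1.16, -1.15 and -1.08. For MTRF1 the bulls ran from -2.05 to -0.65 and the groups overlapped.

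The ratio had little in common between bulls. Across genes, which are not independent, its r was -0.13 to 0.04 between HF bulls, -0.06 to 0 between SF bulls and -0.1 to 0.27 between groups. The highest, 0.27, was HF5 with SF5, the 2 dim arrays with the GC trend, and it was 0.22 with that trend removed. The ChIP signal alone correlated at 0.78 and 0.77 on average within HF and SF and 0.78 between them, and with the array's own input at 0.71 to 0.86. So bulls of 1 group were no more alike in the ratio than bulls of different groups. The SD between bulls was 0.61 in the median gene of HF and 0.57 of SF, larger in HF for 3592 genes and in SF for 3213.

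H3K27me3, read in the same bulls, is the mark of Polycomb silencing. Whether the HF-SF difference was the same for both marks was tested as an interaction over all 12 arrays. limma called 0 of 6805 genes (0%), with 45 (0.661%) at an unadjusted p under 0.05. The 2 arrays of a bull share its input: input deviations of the same bull correlated across genes at r of 0.95 to 0.98, and at most 0.19 between different bulls. As an alternative, the H3K27me3 level was subtracted from the H3K4me2 level within each bull, which takes out that shared input. These paired differences were compared between HF and SF with limma. In that comparison 246 genes had an unadjusted p under 0.05 and 0 were called, with an adjusted p of 0.959 for the genes named here. Because the 2 comparisons share their input, no overlap of them is given, only values side by side.

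In OXSR1 and LMAN2L the difference was large with H3K4me2 and near 0 with H3K27me3: 1.62 against 0.1 with H3K27me3 in OXSR1, and 1.65 against -0.2 in LMAN2L, interactions of 1.51 and 1.85. FPGT (0.6 and -1.21) had an interaction of 1.81 with differences of opposite sign, and NGDN (-0.06 and -1.59) one of 1.53 with a difference near 0 in H3K4me2. Below 0 were RUNDC3A (-0.64 and 2.82), UBTD1 (-0.67 and 2.33), C1QTNF1 (-0.5 and 2.1) and ASRGL1 (-1.52 and 1), with interactions of -3.45, -2.99, -2.6 and -2.52. PATZ1 had -1.3 with H3K4me2 and 0.34 with H3K27me3, and ZNF35 3.14 and 0.24. ASB8 differed by 2.21 with H3K4me2 and 3.43 with H3K27me3. CDH3 (2.07 and 2.13), AMMECR1L (1.79 and 2.11) and DEFB123 (1.97 and 2.01) had values of similar size with either antibody, and KAT7 differed by -1.94 and -1.13. ZNF192, the gene of smallest p with H3K4me2, differed by 2.89 and 2.16, PIGL by 2.42 and 2.13, and SERP1 by -2.25 and -1.36. None of these interactions passed the adjusted threshold in limma.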

How the data were processed

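H3K4me2 ChIP DNA (Cy5) and input DNA (Cy3) of 6 bulls were hybridised to 6 two-colour arrays, with no dye swap, per the labels. The authors extracted an intensity per spot and colour, using Agilent Feature Extraction 10.7 per the submitters' processing notes. The file headers give version 10.7.3.1, with background subtraction and linear dye scaling within each array. The deposited files also hold a log10 ratio and quality flags per spot, and the deposited value table holds log2 ratios. That table correlated at r of 0.741 to 0.988 with the ratio used here, had column medians of -0.13 to 0.1, and its correction is not given in the sources used here. It served as an alternative.

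Values were log2 of the processed Cy5 over Cy3 signal. Outlier spots were left out, probes needed input above background on at least 6 of 12 arrays, and each array was centred on its median. Genes were means of at least 2 probes. HF and SF were compared with limma 3.58.1 in R 4.3.3 (lmFit, eBayes, two-sided, Benjamini-Hochberg at 0.05) on the 6 arrays, and the interaction with H3K27me3 on 12. The fit was tested on simulated data of 6805 genes, 200 of them changed. Of the 6805 symbols 5788 matched the buffalo RefSeq table.

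Named genes were, per direction, the 12 of smallest unadjusted p with at least 5 probes and the 3 with 2 to 4 probes, all without overlap of the groups, leaving out LOC identifiers and genes on several chromosomes, the 2 of smallest p per list, 5 regions per direction, the 8 highest and 8 lowest means of 1 sign, 4 interactions per direction, and KAT7, ZNF192, OXSR1, PATZ1, TNP1 and the H3K4 writers and demethylases. Some genes that met these rules are not reported here. The question, members, lists and rules were chosen with earlier results of these data known. Bull numbers pair arrays of the 2 marks by animal (input r of 0.95 to 0.98). HF and SF bulls share only the number 5, which stands for different animals. Alternatives were other normalizations, background correction, filters and probe summaries, removal of a GC trend and leaving out bulls.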

Additional observations from a re-analysis of the deposited data

Results flagged for a closer look

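Of 20 quantities tested over the 6 arrays (16 gene levels and 4 measures of the arrays), 4 had a bull far from the nearest other by Dixon's criterion. Chance flags about 1 in 20 groups, a rate that does not hold for these genes, since they were chosen for extreme means. POMT2, a mannosyltransferase, read 2.74 in HF5. CCDC135, a coiled-coil protein of the sperm flagellum, read 2.28 in SF5, and PRADC1 read 2.58 in SF5. LRTOMT read -0.21 in SF1, the highest of 6 values below 0. HF5 and SF5 are the dim arrays, and their part in these values was not tested.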

How the results depend on the processing

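Across 18 alternative settings the number of calls at an adjusted p under 0.05 was 0 in all 91 values for genes, probes, regions, each colour, the mean level and the interaction, and the lowest adjusted p of any named gene was 0.528. The 30 lead genes kept their direction in all 474 values, at 0.33 to 1.43 times the size given. Their choice by groups without overlap fixes the sign when bulls are left out. ASB8 was 0.74 under normexp background correction and NLE1 -0.71 with the median of its probes. Without HF5 and SF5, NDRG4 was -1.41, TMEM177 -1.6 and TXNDC5 1.67. The balance at an unadjusted p under 0.05 moved with single bulls: HF was higher in 85 of 199 genes and 1927 of 5927 probes when SF5 was left out, in 105 of 224 genes when SF4 was, and in 174 of 242 genes and 5086 of 6935 probes when HF5 was. Probes at that level numbered 8163 without HF5 and SF5, and genes 129 when at least 5 probes were asked for, with 298 without overlap. Interaction genes numbered 246 with paired differences within each bull, 71 without SF1 and 17 without SF5. The pairing by bull changed no adjusted call. Directions turned for some genes of the lists: NO66 gave -0.04 after loess, -0.02 in the deposited table, -0.14 at equal array scale and -0.26 without HF5 and SF5, where DPY30 gave 0.2, PAXIP1 0.02 and SMYD3 -0.34, and WDR5 gave 0.05 after loess. Leaving out 1 bull gave -0.16 to 0.37 for NO66, -0.64 to 0.29 for WDR5, -0.24 to 1.29 for CXXC1, -0.01 to 0.43 for KDM5A, -0.17 to 0.55 for SMYD3, -0.88 to 0.12 for DDX25 and -0.25 to 1.82 for SPAG11B, an epididymal defensin-like gene of 2 probes. The cause was not tested. Slide as a random block could not be fitted, since only 1 slide held 2 arrays. ChIP signal was above background at 93.9% of probes in HF5 and 95.7% in SF5, the lowest of the 6 arrays. With 3 bulls per group, differences under about 1.2 lie within the interval of the median gene.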
